A study of Mus musculus with 18 samples.

Results

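The cytosolic ribosomal protein genes were followed across splenic B cells that were left resting or were stimulated through the antigen receptor or Toll-like receptor 4, with and without Ubqln1. Members were the protein-coding genes of the deposited count tables whose mouse symbols follow the Rpl, Rps, Rplp and Rpsa pattern, with S6 kinase genes and pseudogene symbols removed, and 89 of the 28096 genes in the tables qualified. They were 46 proteins of the large subunit, 31 of the small subunit (77 core members in all), 11 paralogs or retrotransposed copies, and Rps19bp1, a nucleolar protein that binds Rps19 and is not itself a ribosomal protein. Fau and Rack1 are ribosomal proteins with other symbols and were read beside the members.

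The cells came from C57BL/6 N mice at least 8 weeks old, either WT or Ubqln1-/- (the labels' Ubiquilin-1 KO). In the knockout, exon 2 had been removed in embryonic stem cells, so every cell of those animals lacked it. Cells of each genotype stayed resting, were given F(ab)2 fragments against IgM at 10 μg/mL (anti-IgM), or were given LPS of K12 E. coli at 20 μg/mL, all for 4 hr, with 3 libraries of poly(A) RNA for each of the 6 groups and 18 in all. The RNA of triplicate stimulations was pooled before it was purified, and the libraries of a group came from independent experiments. The labels name no animals and do not say which libraries of different groups share an experiment. In bulk RNA a lower level per cell and fewer expressing cells cannot be told apart.

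Exonic counts summed to between 15368941 and 41072854 per library. Ubqln1 was counted at 229 to 237 CPM (counts per 1000000 of the TMM-scaled library) in resting WT cells and 91.4 to 106 CPM in resting Ubqln1-/- cells, a log2 fold change of -1.27 ± 0.07 (SE, edgeR adjusted p = 6.68e-08), and reads outside exon 2 still count toward the gene. The 9 B cell markers summed to 7500 to 9460 CPM in resting and LPS libraries and to 3040 to 3730 CPM after anti-IgM. The 9 T cell markers summed to 4.34 to 8.02 CPM without anti-IgM and 19.3 to 28.3 CPM with it, where Cd5 averaged 15.2 CPM in WT and 18.6 CPM in Ubqln1-/- cells while Cd3e, Cd3d and Cd3g stayed at or under 0.319 CPM in every library. The 8 myeloid markers summed to 11.3 to 51.2 CPM and were highest in resting cells, the 4 platelet markers to at most 8.02 CPM, the 5 erythroid markers found to at most 5.76 CPM and the 4 NK markers to at most 0.558 CPM. The 5 plasma cell markers were lower in Ubqln1-/- than in WT libraries without overlap. They summed to 354 to 585 CPM in WT and 284 to 312 CPM in Ubqln1-/- resting cells. After anti-IgM the sums were 335 to 544 and 279 to 298 CPM, and after LPS 219 to 420 and 184 to 198 CPM. The part that these cells take in the values below was not tested.

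The ribosome is assembled in the nucleolus from rRNA and from ribosomal proteins that the cytosol makes and the nucleus imports, in nearly equal numbers. Their mRNAs typically open with a cytosine and a run of pyrimidines, the terminal oligopyrimidine (TOP) tract, through which mTOR signaling sets how strongly they are translated. Lymphocytes leaving quiescence enlarge their nucleoli and raise their protein synthesis before they divide. Ribosomal protein genes also have many processed pseudogene copies in the mouse genome, and 62 of the 89 members have at least 1 numbered pseudogene symbol in RefSeq.

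These copies bear on what a 50-base read can count, so the first sequences shown are 50-base windows of the coding exons, printed from 5′ to 3′ on the coding strand in lower case with no part in capitals. Among members that changed most, the window that most other annotated genes carry is shown, and among the most highly counted members the middle window.
Rpl10a, exon 3, chr17:28328997-28329046, plus strand: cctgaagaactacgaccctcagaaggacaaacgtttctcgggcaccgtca
Rps12, exon 5, chr10:23785224-23785273, minus strand: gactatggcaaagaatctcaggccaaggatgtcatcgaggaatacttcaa
Rps27a, exon 5, chr11:29545893-29545942, minus strand: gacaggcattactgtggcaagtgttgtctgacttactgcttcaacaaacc
Rpl8, exon 4, chr15:76904899-76904948, plus strand: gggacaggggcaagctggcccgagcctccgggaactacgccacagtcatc
Rpl4, exon 6, chr9:64177000-64177049, plus strand: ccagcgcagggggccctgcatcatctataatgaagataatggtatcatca
All coordinates are in GRCm38. The Rpl10a window occurred without a mismatch in 3 other annotated genes, the Rps12 window in 22 and the Rps27a window in 9, nearly all of them pseudogenes (3, 20 and 9). The Rpl8 and Rpl4 windows occurred in no other annotated gene. Of all windows that lie inside 1 coding exon, 398 of 398 in Rpl10a, 186 of 186 in Rps12 and 224 of 224 in Rps27a were shared with another gene, compared with 63 of 526 in Rpl8 and 165 of 813 in Rpl4. Over whole transcripts, 26 core members had at least 50% of their 50-base windows to themselves and 51 had less. The matched transcript was not always of the length that was counted. It held 1242 bases for Rpl12, 1109 for Rps16 and 3706 for Rps20, where the counted widths were 638, 615 and 502. For Rps15a it held 640 bases, beside a counted width of 5136. For such members the percentage may not describe the counted exons. How the authors treated reads that align to several places is not given in the sources used here.

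Counts were spread very unevenly over the members. Rpl8 of the large subunit held 13.2% of all member counts, Rpl4 11.5%, Rps3 11.4% and Rpl13a 6.89%, and the 10 most counted members together held 69.4%. Per length, in resting WT cells, Rpl8 stood at 1695 ± 162 RPKM (SD, n = 3), Rpl13a at 1095 ± 88.2 RPKM and Rpl4 at 891 ± 68.5 RPKM. Rpl8 lay above Rpl13a and Rpl13a above Rpl4 by more than their spread. At the other end were Rpl24 with 2.09 ± 0.195 RPKM, Rpl21 with 2.15 ± 0.0729 RPKM, Rpl36a with 2.87 ± 0.606 RPKM and Rpsa, the laminin receptor precursor of the small subunit, with 3.01 ± 0.301 RPKM. Rpl24 and Rpl21 did not differ beyond their spread, and neither did Rpl36a and Rpsa. Of the non-members, Rack1, a scaffold protein of the small subunit, stood at 1382 ± 88.2 RPKM, whereas Fau, a small subunit protein made as a fusion to a ubiquitin-like protein, stood at 17.1 ± 1.68 RPKM.

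The level of a member went with how much of its transcript is unique. Over the 77 core members, the log2 mean RPKM and the percentage of unique windows had a Pearson r of 0.62 and a Spearman rho of 0.541, given as a description since all members were read in the same libraries. Rps27, a zinc finger protein of the small subunit, had 1.4% unique windows and 11.9 ± 1.59 RPKM in resting WT cells. Rpl5 and Rpl11, which carry the 5S rRNA into the large subunit together, averaged 14.8 and 7.23 RPKM over the 18 libraries with 6.2% and 37.8% unique windows. Differences in level between members are therefore differences in counted reads per length, and whether they follow the mRNAs was not tested.

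Together the 89 members took little of each library. In resting WT cells they held 1.05%, 1.29% and 1.17% of all counts in replicates 1, 2 and 3, a mean of 1.17% ± 0.121 (SD, n = 3), and in resting Ubqln1-/- cells 1.13% ± 0.0194. After anti-IgM the share was 1.211% ± 0.0446 in WT and 1.202% ± 0.0162 in Ubqln1-/- cells, and after LPS 1.10% ± 0.0481 and 1.11% ± 0.0167. The 3 resting WT libraries spanned a wider range than any other group and overlapped with both stimulated groups, whereas every WT anti-IgM library (1.19% to 1.26%) lay above every WT LPS library (1.05% to 1.14%). In Ubqln1-/- cells, all 3 anti-IgM libraries (1.19% to 1.22%) lay above all 3 resting libraries (1.11% to 1.15%), and the LPS libraries (1.09% to 1.12%) overlapped with resting ones. With 3 libraries against 3, an exact permutation test cannot give a two-sided p under 0.1, so no test is given.

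**Figure D1:**
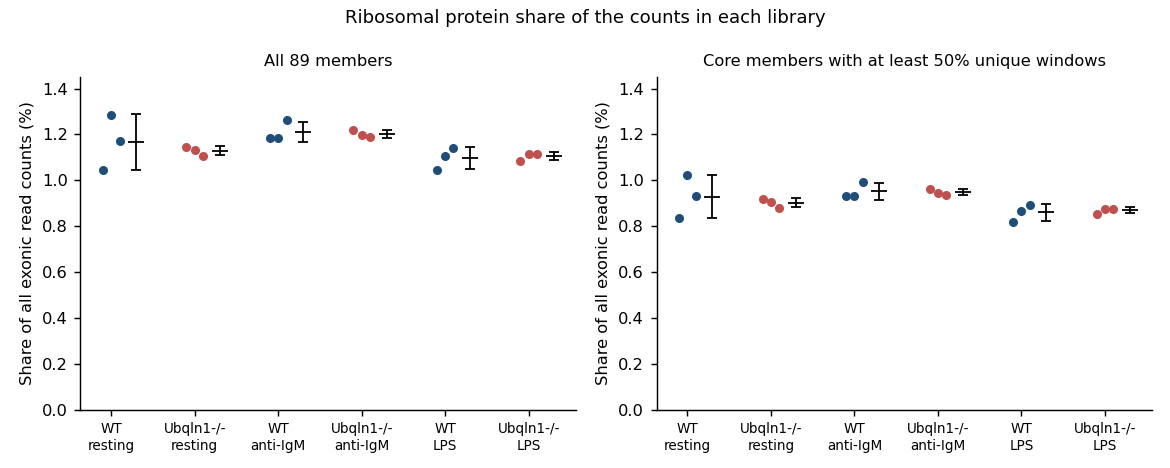
Share of all exonic counts, in percent, held by the 89 members (left) and by the 26 core members with at least 50% unique windows (right) in each of the 18 libraries. Points are libraries, WT in blue and Ubqln1-/- in red, and the bar beside them is the mean ± SD of 3. On the left the resting WT libraries run from 1.05% to 1.29% and the LPS means are the lowest.

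The anti-IgM comparison asked how antigen receptor engagement changed these mRNAs. In WT cells, 48 of the 85 members tested rose and 1 fell (edgeR quasi-likelihood test, Benjamini-Hochberg adjusted p under 0.05 over 14161 genes), beside 32.4% of all tested genes that rose and 32.2% that fell. The other 4 members, Rpl3l, Rpl10l, Rpl39l and Rps23rg1, had too few counts to be tested. The rises were modest, with a median log2 fold change of 0.28 over the members against -0.01 over all tested genes, and 30 members rose by over 0.5, beside 20.9% of all genes. In the large subunit 29 of 46 core members rose and 0 fell, where edgeR gave all 17 others an adjusted p over the threshold. In the small subunit 14 of 31 rose and 1 fell.

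Rps27a, which is made as a fusion to ubiquitin and carries a small subunit protein, had the highest log2 fold change. It was counted at 3.64, 5.22 and 5.88 CPM in resting WT cells and 13.5, 13.4 and 13.2 CPM after anti-IgM, so that the groups did not overlap. The log2 fold change was 1.43 ± 0.15 (SE, edgeR adjusted p = 3.21e-07).

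Rpl10a of the large subunit was counted at 13.9, 17.0 and 15.7 CPM in resting WT cells. After anti-IgM it stood at 34.3, 35.8 and 37.9 CPM, all above the resting libraries, with a log2 fold change of 1.21 ± 0.09 (SE, edgeR adjusted p = 5.04e-09). Rps12 of the small subunit head went from 6.65, 7.95 and 6.87 CPM to 15.6, 14.3 and 17.6 CPM, again without overlap (1.14 ± 0.13, edgeR adjusted p = 1.03e-06). Rpl23a, at the mouth of the exit tunnel through which the nascent chain leaves, rose by 1.17 ± 0.18 from levels of only 1.54 to 2.22 CPM. Rpl27, Rpl36a and Rps23 rose by 1.13 ± 0.14, 1.12 ± 0.18 and 1.10 ± 0.15 on the log2 scale. None of these members reached 50% unique windows, their values lying between 9.9% for Rps12 and 48.3% for Rps23.

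The most highly counted members moved little. Rpl8 was counted at 1316, 1595 and 1472 CPM in resting WT cells and 1584, 1627 and 1739 CPM after anti-IgM. The lowest stimulated library lay under the highest resting one, and the log2 fold change was 0.18 ± 0.06 (SE, edgeR adjusted p = 0.0230). Rpl4 went from 1157, 1341 and 1304 CPM to 1325, 1360 and 1468 CPM, with overlapping groups (0.13 ± 0.06, edgeR adjusted p = 0.0713). Rps19, which shapes the small subunit head, gave -0.16 ± 0.09, Rps20 -0.15 ± 0.07, Rps7 -0.15 ± 0.07, Rps21 -0.14 ± 0.09, Rpl13a -0.14 ± 0.06 and Rps27 -0.12 ± 0.13, and none of these passed the test.

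**Figure D2:**
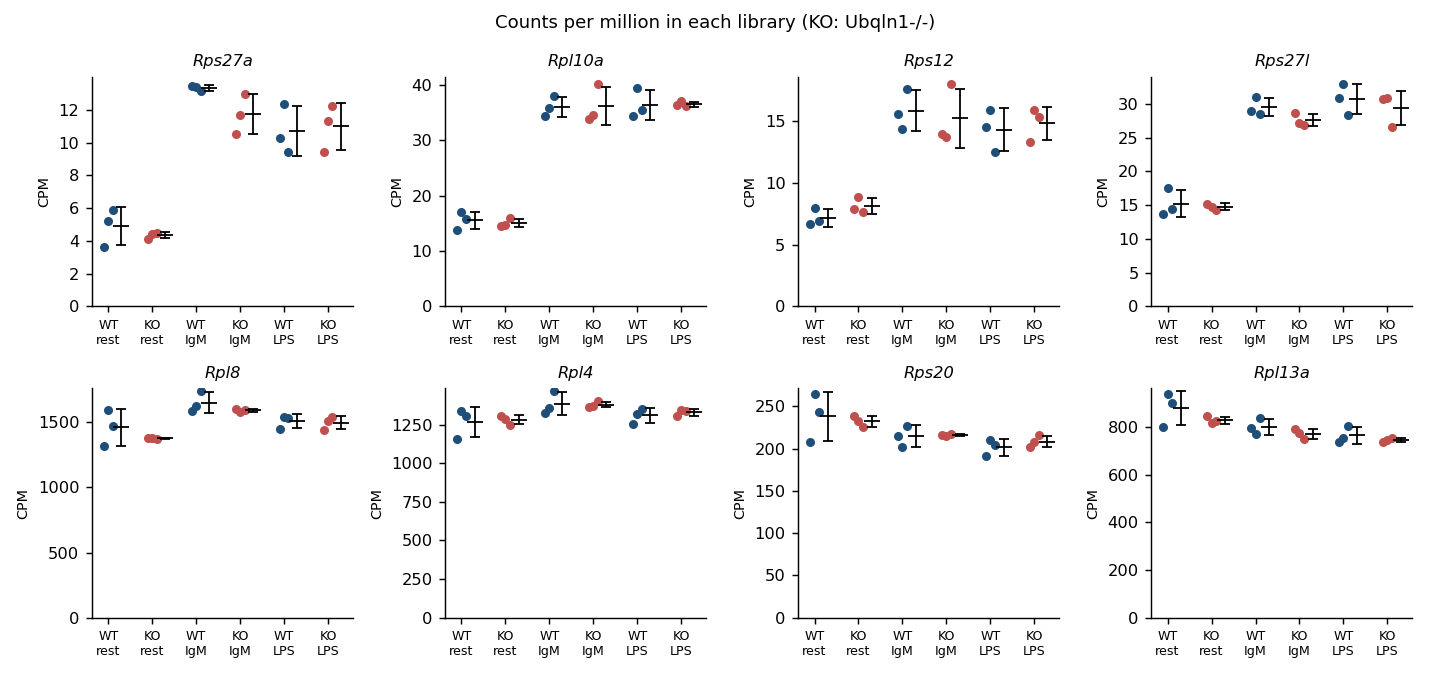
CPM of 8 members in each library, each panel with its own linear axis from 0. Points are libraries, WT in blue and Ubqln1-/- (KO) in red, with the mean ± SD of 3 beside them. Rps27a, Rpl10a, Rps12 and Rps27l lie higher in all stimulated than in all resting libraries, whereas Rpl8, Rpl4, Rps20 and Rpl13a change little for their level.

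The response was graded along the level of the members. The core members were ordered by mean RPKM over all libraries. Of the 25 highest 5 rose (20.0%) and 1 fell, with a median log2 fold change of 0.07. Of the 25 middle ones 14 rose (56.0%, median 0.28), and of the 27 lowest 24 rose (88.9%, median 0.58). Across the 77 core members the log2 fold change and the log2 mean RPKM had a Pearson r of -0.658 and a Spearman rho of -0.724, and the log2 fold change and the percentage of unique windows -0.497 and -0.534, as descriptions. Of the 26 core members with at least 50% unique windows 7 rose (26.9%) and 1 fell (3.85%), beside 32.4% and 32.2% of all tested genes. Their median was 0.10, and 2 of them, Rps29 and Rpl12, passed 0.5, beside 20.9% of all genes. Of the 51 with less, 36 rose (70.6%) and 0 fell by edgeR, with a median of 0.48. The part that reads shared with other genes take in this gradient was not tested. Rows named as ribosomal protein pseudogenes were mostly too low to test: 13 of 52 were tested, 1 rose and 12 did not pass.

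**Figure D3:**
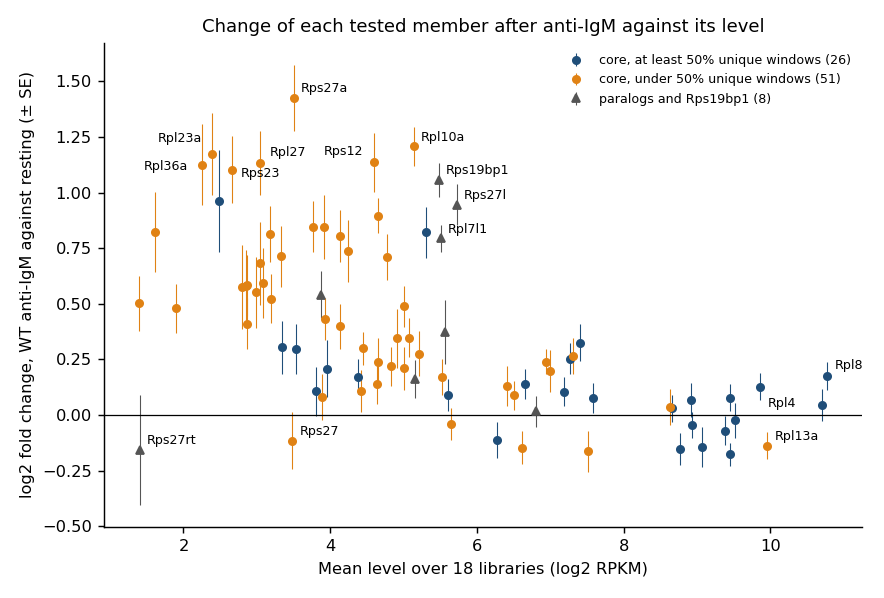
Log2 fold change of each of the 85 tested members in WT cells after anti-IgM (vertical axis, bars ± SE) against its mean level over 18 libraries (horizontal axis, log2 RPKM). Core members with at least 50% unique windows are blue, those with less orange, and paralogs with Rps19bp1 grey triangles. Changes over 0.5 lie at levels under about 6 on the log2 axis, and the members at the right end lie near 0.

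Within the working parts of the ribosome the members differed among themselves. In the P stalk, which recruits elongation factors, Rplp0 (0.25 ± 0.07) and Rpl12 at its base (0.82 ± 0.12) rose, while Rplp1 (0.04 ± 0.08) and Rplp2 (0.20 ± 0.09) did not pass the test. Of the 5S particle, Rpl11 gave 0.58 ± 0.16 and passed, and Rpl5 gave 0.08 ± 0.10 and did not. Around the exit tunnel 5 of 8 proteins rose (Rpl17, Rpl19, Rpl23a, Rpl31 and Rpl35), with a median of 0.42, beside 32.4% of all tested genes. These 5 had from 4.9% (Rpl35) to 24.9% (Rpl31) unique windows. At the mRNA entry channel Rps2 rose by 0.71 ± 0.10, and Rps3 (0.08 ± 0.06) and Rps9 (-0.07 ± 0.06) did not pass. In the small subunit head 7 of 12 rose, beside the same 32.4%, with a median of 0.30 and a range from -0.16 for Rps19 to 1.14 for Rps12. Uniqueness differed within the other parts as well. Rplp0 and Rpl12, which rose, had 58.2% and 50.6% unique windows, and Rpl5, which did not, had 6.2%. The Rpl12 percentage came from a transcript of 1242 bases, beside a counted width of 638. The part that uniqueness takes in these differences was not tested.

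Of the 7 paralogs tested 4 rose: Rps27l, Rpl7l1, Rpl36al and Rpl22l1. Rps27l, a paralog of Rps27 with 77.6% unique windows, was counted at 13.7, 17.6 and 14.5 CPM in resting WT cells and 29.0, 31.0 and 28.5 CPM after anti-IgM (0.95 ± 0.09, edgeR adjusted p = 1.25e-07). Rps27 itself stood at 5.94, 6.89 and 7.77 CPM before and 6.30, 6.17 and 6.63 CPM after, with overlapping groups. Rpl7l1, whose relatives act in large subunit assembly, went from 71.9, 84.0 and 77.1 CPM to 128, 142 and 134 CPM (0.79 ± 0.06, edgeR adjusted p = 1.33e-08). Rpl36al rose by 0.54 ± 0.10 and Rpl22l1, the paralog of Rpl22, by 0.37 ± 0.14 (edgeR adjusted p = 0.0304), beside 0.14 ± 0.07 for Rpl22, which did not pass. The retrotransposed copy Rps27rt stood at 1.02, 1.17 and 1.49 CPM in resting cells and gave -0.16 ± 0.25, within the spread. The copies Rpl37rt, with the highest level of the paralogs per length (115 RPKM in resting WT cells), and Rpl32l gave 0.02 ± 0.07 and 0.16 ± 0.09 and did not pass. Rps19bp1, with 100% unique windows, went from 21.2, 26.6 and 22.1 CPM to 49.1, 47.2 and 49.7 CPM, a log2 fold change of 1.06 ± 0.08 (edgeR adjusted p = 5.67e-09).

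In WT cells after anti-IgM, the listed genes that build ribosomes had a higher median log2 fold change than the tested core members (0.27). The lists below were chosen with earlier results of these data known, so their counts are descriptions. Of all tested genes 32.4% rose and 32.2% fell. Most core members share much of their transcript with other genes, and the part this takes in the difference was not tested. All 32 ribosome biogenesis genes of the list used here rose, with a median log2 fold change of 1.55, and the highest were Gnl3 (2.18 ± 0.13), a nucleolar GTPase, Nolc1 (2.07 ± 0.12), a nucleolar chaperone, Polr1b (2.02 ± 0.13), a subunit of RNA polymerase I, and Nhp2 (1.93 ± 0.11), of the pseudouridylation particles. All 5 chaperones and escorts of single ribosomal proteins rose, among them Grwd1 (1.79 ± 0.11), Heatr3 (1.43 ± 0.10), Tsr2 (1.22 ± 0.11) and Bccip (0.68 ± 0.07). Of 14 elongation factors and other genes with TOP mRNAs 10 rose and 2 fell, with a median of 0.35 and with Npm1 (1.26 ± 0.12), Eef1d (0.74 ± 0.09), Hnrnpa1 (0.66 ± 0.10) and Eef1b2 (0.44 ± 0.08) as the largest. Of 8 genes listed as regulators of TOP mRNA translation 6 rose and 1 fell. Among the 6 were the repressor Eif4ebp1 (1.75 ± 0.25), the TOP-binding protein Larp1 (1.37 ± 0.12), Larp4 (1.01 ± 0.09) and the S6 kinase Rps6kb1 (0.57 ± 0.06). Of 78 mitochondrial ribosomal proteins 55 rose and 5 fell, with a median of 0.41. Rack1 rose by 0.16 ± 0.05 (edgeR adjusted p = 0.0157), and Fau gave -0.18 ± 0.09 and did not pass.

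**Figure D4:**
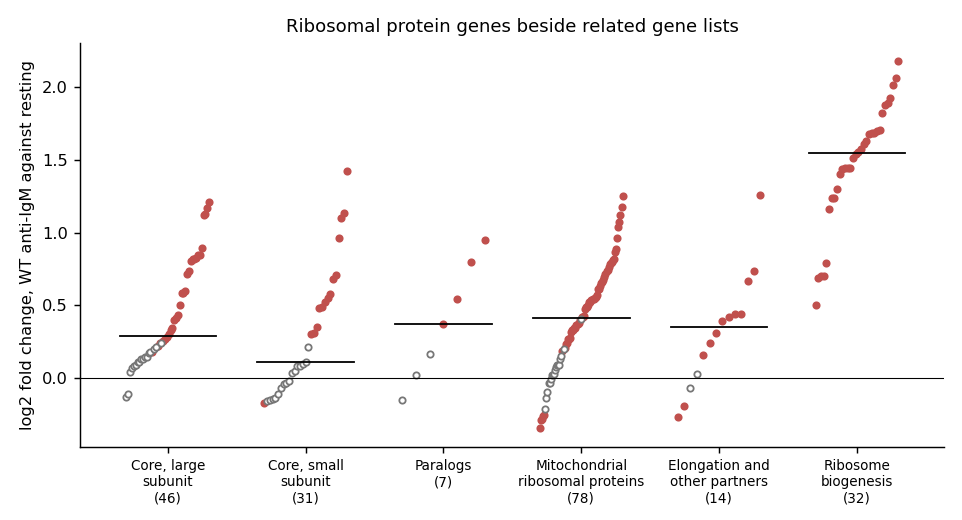
Log2 fold change after anti-IgM in WT cells for the tested core members of each subunit, the paralogs and 3 related lists, with the number of genes in parentheses. Filled red points passed an edgeR adjusted p of 0.05, open points did not, and the bar is the median. All 32 biogenesis genes are filled and their median of 1.55 lies above every ribosomal protein.

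LPS acts through Toll-like receptor 4. In WT cells 36 members rose and 7 fell, beside 31.2% of all tested genes that rose and 30.1% that fell, and the median over the members was 0.15 against -0.01 over all genes. Among the 25 highest core members edgeR called 0 as risen, and 5 fell, whereas 22 of the 27 lowest rose. Of the 26 core members with at least 50% unique windows 3 rose and 5 fell (median 0.00), and of the 51 with less 29 rose and 1 fell (median 0.41). Rpl10a went from 13.9, 17.0 and 15.7 CPM to 34.3, 39.4 and 35.4 CPM (1.22 ± 0.09, edgeR adjusted p = 8.60e-09) and was the member with the highest log2 fold change. In all, 21 members rose by over 0.5 and 1 fell by as much, beside 18.5% and 19.2% of all genes. Rps27a (1.11 ± 0.15), Rps29 (1.02 ± 0.22), Rps27l (1.01 ± 0.09), Rps12 (0.99 ± 0.13), Rpl7l1 (0.93 ± 0.06), Rps19bp1 (0.91 ± 0.08) and Rpl27 (0.89 ± 0.14) followed. Rpl8 (0.05 ± 0.06), Rpl4 (0.05 ± 0.06) and Rps3 (-0.03 ± 0.06) did not pass.

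Among the members that fell after LPS in WT cells were Rps27rt (-0.73 ± 0.25), Rpl37a (-0.29 ± 0.08), Rps20 (-0.24 ± 0.07), Rps21 (-0.24 ± 0.09), Rpl13a (-0.20 ± 0.06) and Rps9 (-0.16 ± 0.06). Rps20 was counted at 207, 265 and 243 CPM in resting cells and 191, 210 and 204 CPM after LPS, and Rpl13a at 801, 939 and 898 CPM and 737, 755 and 806 CPM. For both, the lowest resting library, replicate 1, lay within the range of the LPS libraries and the other 2 above it. Without that library 13 members fell and 30 rose after LPS, and without resting replicate 2, which had the highest share, 2 fell and 44 rose. Without resting WT replicate 1, 7 members fell after anti-IgM and 39 rose, and without replicate 2, 1 fell and 62 rose. The shares of all tested genes called without these libraries are not given here. With library size in place of TMM scaling, which lowered the median of all genes by LPS to -0.09, 11 members fell and 31 rose in WT cells. The share of higher genes among all called genes then went from 50.9% to 43.0%.

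In the direct comparison of the stimuli the count depended on the fit. At an unadjusted p under 0.05 in edgeR stood 16 members in LPS against anti-IgM in WT cells, in either direction. Of all tested genes 32.4% passed there even after adjustment. In this comparison edgeR without a replicate block called 0 members higher, as did DESeq2 and limma, and 3 lower, beside 17.4% of all tested genes higher and 15.0% lower. The 3 were Rpl36a, Rpl35 and Rpl41, all of the large subunit. Rpl36a was counted at 2.87, 3.71 and 2.73 CPM after anti-IgM and 1.78, 2.34 and 2.11 CPM after LPS (-0.58 ± 0.17, edgeR adjusted p = 0.0119). Rpl35, beside the exit tunnel, was counted at 5.38, 5.95 and 5.16 CPM and 4.13, 4.01 and 3.83 CPM (-0.46 ± 0.12, edgeR adjusted p = 0.00621). Rpl41, the smallest ribosomal protein, was counted at 60.9, 60.4 and 62.2 CPM and 50.9, 55.7 and 52.5 CPM (-0.21 ± 0.06, edgeR adjusted p = 0.00964). In none of the 3 did the stimulated groups overlap, and Rpl36a differed by over 0.5, beside 7.99% of all genes that were lower by as much. The same 3 were lower in Ubqln1-/- cells (-0.71 ± 0.17, -0.39 ± 0.12 and -0.18 ± 0.06), where Rpl7l1 was higher after LPS (0.21 ± 0.06, edgeR adjusted p = 0.0143), beside 14.5% of all genes lower (8.23% by over 0.5) and 16.8% higher. With library size in place of TMM scaling 14 members were lower and 0 higher in WT cells by edgeR, and 4 lower and 0 higher in Ubqln1-/- cells, while the share of higher genes among all called genes went from 53.8% to 43.6% and from 53.6% to 39.4%. With the replicate number as a block 1 member was higher and 13 were lower in WT cells, beside 42.8% of all genes called in either direction under that fit, and 2 were higher and 5 lower in Ubqln1-/- cells, beside 41.8%. Without WT LPS replicate 1 the WT count was 1, and without Ubqln1-/- anti-IgM replicate 1 the Ubqln1-/- count was 2 in place of 4.

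In Ubqln1-/- cells anti-IgM raised 48 of the 85 members and lowered 2, beside 32.9% and 32.4% of all tested genes, with a median of 0.29. Beyond 0.5 on the log2 scale 30 rose and 1 fell, beside 21.0% and 21.2%. Of the members that rose, 45 did so in both genotypes, 93.8% of those in WT and 93.8% of those in Ubqln1-/- cells. Rps27a was counted at 4.12, 4.43 and 4.50 CPM in resting Ubqln1-/- cells and 10.6, 11.7 and 13.0 CPM after anti-IgM (1.43 ± 0.15, edgeR adjusted p = 3.54e-07), and Rpl10a at 14.6, 14.7 and 15.9 CPM and 33.9, 34.5 and 40.1 CPM (1.26 ± 0.09). Rpl8 rose from 1377, 1381 and 1375 CPM to 1599, 1579 and 1598 CPM, here with no overlap (0.21 ± 0.06, edgeR adjusted p = 0.00852). Rps27rt was among those that fell (-0.91 ± 0.25). LPS raised 41 members and lowered 2, among them Rpl13a (-0.15 ± 0.06), and that count became 0 by edgeR when resting replicate 1 or any of the LPS libraries was left out, beside 30.6% and 30.2% of all tested genes, and 30 rose by over 0.5, beside 18.2%. Of the 41, 35 had also risen in WT cells, which is 97.2% of the 36 risers there and 85.4% of the 41.

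**Figure D5:**
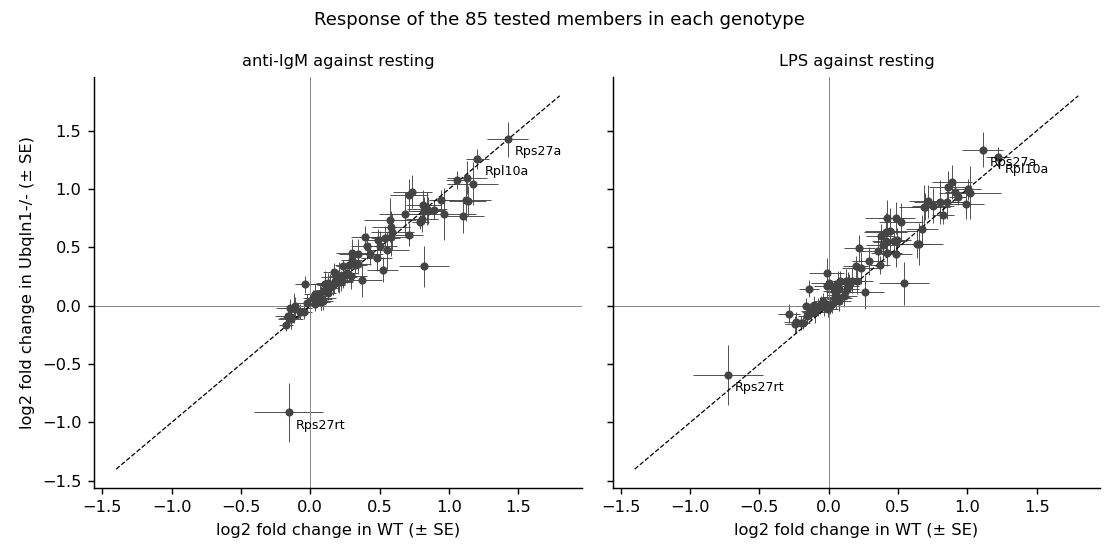
Log2 fold change of the 85 tested members in Ubqln1-/- cells (vertical axis) against that in WT cells (horizontal axis), after anti-IgM on the left and LPS on the right, with bars of ± SE and a dashed line of equal change. Most points lie near the line, with Rps27a and Rpl10a at the upper end, while Rps27rt lies off it after anti-IgM, at -0.16 in WT and -0.91 in Ubqln1-/- cells.

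No member passed the test between genotypes. In resting cells edgeR called 0 of the 85, beside 0.0565% of all tested genes, and DESeq2 and limma called 0 as well. In edgeR 2 members (2.35%) had an unadjusted p under 0.05, beside 4.22% of all tested genes. After anti-IgM edgeR, DESeq2 and limma called 0, beside 0.0989% of all genes, and after LPS all of these tools called 0, beside 0.0424%. With each stimulus 1 member (1.18%) had an unadjusted p under 0.05 in edgeR. Of all genes 5.14% had such a p after anti-IgM and 3.93% after LPS. The differences between the genotypes' responses gave 0 members with each tool for anti-IgM and for LPS, and no gene at all passed in edgeR (0.0%). At an unadjusted p under 0.05 in edgeR were 2 (2.35%) and 1 (1.18%) members, beside 0.989% and 1.55% of all genes. Among members the genotypes differed most in the anti-IgM response of Rps27rt (-0.76 ± 0.35, unadjusted p = 0.0468 and adjusted p = 1.00 with edgeR). In resting cells the difference was under 0.25 on the log2 scale for 81 of the 85 members, after anti-IgM for 83 and after LPS for 84.

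The members with the largest genotype differences were low in counts or close to the spread. Rps10 of the small subunit head had the smallest p in resting cells. It was counted at 27.6, 32.9 and 30.2 CPM in WT and 26.5, 25.6 and 26.6 CPM in Ubqln1-/- cells, so the groups did not overlap (KO minus WT -0.21 ± 0.07, unadjusted p = 0.0104 and adjusted p = 0.901 with edgeR). After anti-IgM its groups overlapped, at 28.8, 28.6 and 31.2 CPM and 29.4, 29.2 and 30.9 CPM. Rpl9 gave -0.34 ± 0.15 and Rpl36a 0.36 ± 0.19 in resting cells, and Rps27rt, under 2 CPM in all libraries, gave -0.66 ± 0.25 after anti-IgM (edgeR adjusted p = 0.789). With standard errors of this size, small differences in such members were not detectable at this depth.

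RefSeq promoters (250 bases before to 50 after each annotated start, GRCm38.p6) were at hand for 69 of the 89 members, 81 promoters in all. In 15 of the 81 (18.5%) the annotated start was a C followed by at least 4 pyrimidines, as it was in 2.51% of all 32851 promoters. The stretches below show this shared start for members that rose after anti-IgM and for members that did not, from 60 bases before the start to 20 bases from it on, with the pyrimidine run at the start and any CCGGAAG (either strand) in capitals.
Rpl15, chr14:18270967-18271046, minus strand: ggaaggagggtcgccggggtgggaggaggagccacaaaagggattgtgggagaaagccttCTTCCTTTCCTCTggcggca
Rpl28, chr7:4792905-4792984, plus strand: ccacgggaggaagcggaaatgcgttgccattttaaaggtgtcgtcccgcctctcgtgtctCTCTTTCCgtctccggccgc
Rpl35, chr2:39005112-39005191, minus strand: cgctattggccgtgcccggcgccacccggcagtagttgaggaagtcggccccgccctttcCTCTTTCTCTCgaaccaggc
Rps6, chr4:86857348-86857427, minus strand: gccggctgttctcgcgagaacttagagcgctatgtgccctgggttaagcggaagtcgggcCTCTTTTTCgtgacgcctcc
Rps18, chr17:33955646-33955725, minus strand: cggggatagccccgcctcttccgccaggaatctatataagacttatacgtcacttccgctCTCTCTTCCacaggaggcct
Rps10, chr17:27635225-27635304, minus strand: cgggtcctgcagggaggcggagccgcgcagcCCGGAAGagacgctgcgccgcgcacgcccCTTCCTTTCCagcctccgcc
Rps27, chr3:90213629-90213708, minus strand: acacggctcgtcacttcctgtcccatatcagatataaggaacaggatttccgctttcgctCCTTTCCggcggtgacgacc
Rps21, chr2:180257319-180257398, plus strand: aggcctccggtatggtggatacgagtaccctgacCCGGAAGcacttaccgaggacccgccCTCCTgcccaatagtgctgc
Rpl15, Rpl28, Rpl35, Rps6 (a substrate of S6 kinase) and Rps18 rose after anti-IgM in WT cells, by 0.81 ± 0.12, 0.59 ± 0.16, 0.81 ± 0.13, 0.52 ± 0.11 and 0.49 ± 0.09 on the log2 scale. Rps10 (-0.04 ± 0.07), Rps27 (-0.12 ± 0.13) and Rps21 (-0.14 ± 0.09) open with the same kind of run and did not pass. Of the 15 tested members with a run at the annotated start 8 rose, with a median of 0.22. Of the 50 tested members with a promoter but no run at that exact base 29 rose, with a median of 0.30. Of all tested genes 32.4% rose. Some of the 50 may hold a run nearby, since within 2 bases of the start 25 of the 81 promoters (30.9%) had one, beside 8.96% of all searched. Whether these mRNAs begin at the annotated base was not tested. The letters CCGGAAG, on either strand, were found in 33.3% of the members' promoters and in 8.86% of all, CTTTCC in 49.4% and 26.6%, AAGATGG in 14.8% and 6.34%, CACGTG in 9.9% and 7.15%, and TATAAA in 9.9% and 13.6%. A run at the start can itself hold CTTTCC, so these 2 counts overlap.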

How the data were processed

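RNASeq reads were aligned by the authors to GRCm38 with GSNAP, and the deposited tables give, for each Entrez gene and library, the raw exonic read count, the gene width and an RPKM value. The authors' RPKM values equal the count over width and a library total, so RPKM was recomputed here from the counts and TMM-scaled library sizes. The counting program and the treatment of multi-mapping reads are not given in the sources used here, and the library kit does not mark strand. Symbols came from RefSeq (89.1% of Entrez IDs matched, holding 95.8% to 96.2% of counts). The members and lists were chosen with earlier results of these data known.

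Counts were tested with edgeR 4.0.16 in R 4.3.3 (TMM, filterByExpr, 14161 genes, quasi-likelihood, all 18 samples, 1 term per group, no replicate block, Benjamini-Hochberg). The common biological coefficient of variation was 10.1%. The SE is the log2 fold change over the square root of F. Alternatives were DESeq2 1.42.0, limma 3.58.1 with voom (the authors' tool), other scalings and filters, the replicate block, only the groups compared, other thresholds and leaving out each library. The fit was tested on simulated counts for WT anti-IgM against resting. It recovered 67% of 100 genes changed by 0.5 on the log2 scale and 98% of 100 changed by 1.0. Among the 13973 genes of that fit 6 were called falsely. Unique windows came from 50-base matching of 1 transcript per gene of GENCODE vM21 against all annotated transcripts, both strands. Members named by rule were the 8 highest and 8 lowest log2 fold changes per stimulus in WT cells, the tested paralogs and the 4 highest and 4 lowest RPKM in resting WT cells. From each other list, the 4 largest changes were named. Members named by role or promoter, Rpl35, Rpl41, Rps10 and Rpl9, and the copies Rpl32l, Rpl37rt and Rps23rg1 counted as paralogs, were chosen after values were seen. Figures used matplotlib 3.10.9, with Python 3.11.15. Counts limit the precision of members under a few CPM. Some genes that the counts include are not reported here by name.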

Additional observations from a re-analysis of the deposited data

How the results depend on the processing

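Called changes of the named members kept their direction under every alternative run: 994 such values stayed past the threshold and 41 did not, among the latter Rpl8 and Rpl22l1 after anti-IgM in WT cells and, under at least 1 alternative each, the named members that fell after LPS in WT cells. DESeq2, limma, RLE scaling, TMM without the members, other filters and fitting only the groups compared left the total of called members within 1.5 times for each comparison, and no alternative called a member between genotypes. With a log2 fold change over 0.5 required, 30 members were called after anti-IgM in WT cells, 31 in Ubqln1-/- cells, 22 after LPS in WT cells, and 1 in each genotype for LPS against anti-IgM. At the study's thresholds (adjusted p under 0.001 and log2 fold change over 2) 0 members were called in each comparison by edgeR. Chosen after seeing the data, core members with at least 50% unique windows gave 8 after anti-IgM in WT (7 higher, 1 lower), 8 in Ubqln1-/- (7 and 1), 8 after LPS in WT (3 and 5), 6 in Ubqln1-/- cells (5 and 1) and 0 in both contrasts of LPS with anti-IgM. Over all tested genes 64.6%, 65.3%, 61.2%, 60.7%, 32.4% and 31.3% were called in these comparisons, in the same order. The shares of counts that these core members held were 0.929%, 0.953% and 0.860% in resting, anti-IgM and LPS WT cells and 0.902%, 0.948% and 0.869% in Ubqln1-/- cells. Without paralogs and Rps19bp1 the Ubqln1-/- shares were 1.105%, 1.169% and 1.072%. Library size scaling gave 14 members for LPS against anti-IgM in WT cells and turned Rpl4 (-0.034) and Rpl8 (-0.036) after LPS in WT cells, neither called.

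With 1 library left out, the totals called ranged from 42 to 63 (anti-IgM, WT), 46 to 53 (anti-IgM, Ubqln1-/-), 36 to 46 (LPS, WT) and 36 to 43 (LPS, Ubqln1-/-). For LPS against anti-IgM they ranged from 1 to 4 in WT and from 2 to 3 in Ubqln1-/- cells. The shares of all tested genes called with a library left out are not given here. Uncalled WT values that changed sign ranged from -0.33 to 0.0043 for Rps27rt, -0.20 to 0.00033 for Rpl37a and -0.13 to 0.026 for Rps9 after anti-IgM, and from -0.21 to 0.019 for Rps19, -0.11 to 0.080 for Rps27, -0.017 to 0.10 for Rpl4 and -0.027 to 0.12 for Rpl8 after LPS. The causes were not tested. Members under a few CPM have the widest errors at this depth.

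Replicate 1 of each group carries no number in the labels. Of 45 pairs of libraries with the same replicate number, 43 had deviations from the group means that correlated above 0.1 (lowest 0.055, mean 0.266), so the numbers did not meet the rule for a pairing of every pair above 0.1. All 18 libraries correlated best with their own number, and libraries of different numbers had a mean correlation of -0.132. The authors give 3 independent experiments and a paired t test for RNASeq values that they plot. Which libraries form a pair is not stated. The counts without the block are therefore to be read beside those with it. With the replicate number as a block, 58 members were called after anti-IgM in WT, 60 in Ubqln1-/-, 49 after LPS in WT and 51 in Ubqln1-/- cells, beside 69.9%, 70.7%, 68.0% and 66.9% of all genes under the block and 64.6%, 65.3%, 61.2% and 60.7% without it. The block gave 14 (1 higher, 13 lower) and 7 (2 higher, 5 lower) for LPS against anti-IgM, beside 42.8% and 41.8% of all genes (32.4% and 31.3% without it). Between genotypes or responses it called 0 members in edgeR, with 1 to 3 members at an unadjusted p under 0.05. Such a p was held between genotypes by 8.47% (resting), 11.2% (anti-IgM) and 8.35% (LPS) of all genes. Between responses it was held by 2.66% (anti-IgM) and 3.04% (LPS). Of all genes the block called 0.346% (resting), 0.664% (anti-IgM) and 0.883% (LPS) between genotypes and 0.0% between responses.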
